A study of Mus musculus with 9 samples.

Results

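The major urinary protein (Mup) gene cluster lies on mouse chromosome 4, and its DNA methylation was followed in primordial germ cells by bisulfite sequencing of the whole genome. The cluster was taken as the span from 59900001 to 61900000 of chromosome 4 in build mm9, cut into 1 kb windows that start at multiples of 1000. Members were the 1191 of 2000 windows in which both deposited tables list at least 1 CpG position, out of 2355928 such windows on the autosomes and the X. A pool of 5 Tet1-null (Tet1 -/-) libraries of 1400 to 4700 cells was compared with a pool of 4 wild-type (WT) libraries of 1575 to 5251 cells. All cells came from female C57BL/6 embryos at embryonic day 13.5. The labels give neither the construction of the Tet1 allele nor the way the germ cells were isolated, and they do not say whether libraries came from separate embryos. Neither the deletion nor the cell type can be checked in methylation levels. Each genotype was available as 1 table that pools its libraries, so every difference between genotypes is one between pools, with no replicate check. Listing in both pools depends on read depth and chose the members, so listing, depth and CpG number are given as descriptions.

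Major urinary proteins are small lipocalins made mainly in the adult liver, secreted into urine, where they bind and slowly release volatile pheromones. Their genes form a tandem array that expanded recently in the mouse, and the copies in the middle of the array are more alike than those at its edges. Primordial germ cells, the precursors of eggs and sperm, have erased methylation from most of the genome by this age, and some repeated sequences keep more of it. Tet1 encodes an enzyme that oxidises 5-methylcytosine, and the comparison asks what its loss does to methylation in these cells.

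RefSeq names 22 genes whose symbol is Mup and a number, all on chromosome 4 and all protein coding. Between the first and the last of them lie 24 other annotated genes, of which 22 carry a Mup pseudogene symbol (Mup-ps). Along the chromosome the Mup genes run Mup4, Mup6, Mup7, Mup2, Mup8, Mup9, Mup1, Mup10, Mup11, Mup12, Mup22, Mup13 to Mup19 in number order, Mup5, Mup20, Mup3 and Mup21. Mup20 encodes darcin, a pheromone-like protein that attracts females to male scent. This order comes from GRCm38.p6, while the windows are on mm9, so no window was assigned to a gene. Promoter sequences of 300 bases, from 250 bases before to 50 after the gene start, were given for 14 of the 22 genes. The 3 shown here are the most alike pair, Mup15 and Mup19, and the one least like the others, Mup21, to show how far copies differ. Capitals mark CpG sites, the only letters at which methylation was read, and each is written 5′ to 3′ on the strand of the gene, which is the minus strand.
Mup15 (RefSeq, GRCm38.p6, chr4:61439655-61439954): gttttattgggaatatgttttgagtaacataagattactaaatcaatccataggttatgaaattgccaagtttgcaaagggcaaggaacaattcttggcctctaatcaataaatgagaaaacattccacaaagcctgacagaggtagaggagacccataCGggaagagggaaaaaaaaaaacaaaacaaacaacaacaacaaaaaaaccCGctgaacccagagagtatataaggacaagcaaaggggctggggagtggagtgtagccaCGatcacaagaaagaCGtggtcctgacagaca
Mup19 (RefSeq, GRCm38.p6, chr4:61782175-61782474): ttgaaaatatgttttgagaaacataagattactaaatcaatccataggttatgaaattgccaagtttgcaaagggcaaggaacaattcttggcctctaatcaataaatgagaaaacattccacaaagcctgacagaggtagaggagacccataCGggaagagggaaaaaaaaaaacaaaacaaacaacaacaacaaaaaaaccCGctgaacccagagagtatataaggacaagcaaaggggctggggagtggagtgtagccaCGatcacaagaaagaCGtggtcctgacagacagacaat
Mup21 (RefSeq, GRCm38.p6, chr4:62150792-62151091): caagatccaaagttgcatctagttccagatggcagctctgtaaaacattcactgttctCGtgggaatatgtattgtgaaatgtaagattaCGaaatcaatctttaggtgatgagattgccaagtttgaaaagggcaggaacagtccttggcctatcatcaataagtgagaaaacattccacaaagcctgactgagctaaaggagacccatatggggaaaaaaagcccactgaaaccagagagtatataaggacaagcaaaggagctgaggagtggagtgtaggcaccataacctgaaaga

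The Mup promoters hold few CpG sites and much repeated sequence. The 14 promoters have 1 to 4 CpG sites each, with a median of 3, against a median of 7 over all 32851 promoters in the RefSeq table, of which 38.0% hold 4 or fewer. Aligned with free ends, Mup15 and Mup19 are 99.0% identical, and the 91 pairs have a median identity of 90.9% and a lowest of 73.7%, between Mup10 and Mup21. Of all stretches of 50 bases in the Mup promoters, 40.4% also occur in the promoter of another gene, against 3.76% in the other promoters of chromosome 4. With every C read as T, as after bisulfite conversion of unmethylated DNA, these shares are 42.6% and 4.25%, and with every G read as A, as on the opposite strand, 52.0% and 4.51%. Repetition differs between genes. As written, 99.2% of the stretches of the Mup15 promoter and 96.8% of those of Mup19, picked as the most alike pair, occur in the promoter of another gene. The share is 2.79% for Mup4 at one end of the array and 0% for Mup3 and Mup21 at the other. The other genes range from 5.58% for Mup6 to 85.3% for Mup17, with 5.98% for Mup10. Only the promoters given were searched, with 14 of the 22 Mup genes among them, so 0% does not show that a sequence is unique. A read that lies within a shared stretch does not tell the copies apart. The sources used here give neither the read length nor the treatment of reads with several matches, and the part of repetition in the results below was not tested.

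CpG positions were listed sparsely over the cluster, while the mean depth of those listed lay close to that of the flanks. Of the 2000 windows of the span, 1191 (59.6%) had a listed position in both pools, 295 (14.8%) in 1 pool only and 514 (25.7%) in neither. In the 3 Mb on each side, 5756 of 6000 windows (95.9%) were listed in both pools and 94 (1.57%) in neither. Windows listed in both pools held 5.90 positions on average in the span and 8.74 in the flanks. Over all sequence, the span had 3.83 listed positions per kb and the flanks 8.44. Reads at listed positions per kb of all sequence were 9.105 in the span and 21.5 in the flanks in the Tet1-null pool. In the WT pool they were 5.69 and 13.9. Depth per listed position, given next, leaves out positions without a read. The Tet1-null pool had 17285 reads over 6044 positions of the members, 2.86 reads per listed position, against 2.89 in the flanks. The WT pool had 11088 reads over 4991 positions, 2.22 reads per listed position, against 2.23 in the flanks. Mup windows thus had 0.990 times the depth per position of the flanks in the Tet1-null pool (counting interval 0.974 to 1.01) and 0.998 times in the WT pool (0.979 to 1.02). Against chromosome 4 windows with the same number of listed positions, the depth was 0.978 times in the Tet1-null pool (0.964 to 0.993) and 0.989 times in the WT pool (0.971 to 1.01), so the interval of the Tet1-null pool lies just under 1. The means hide uneven depth along the span. In bins of 100 kb of the Tet1-null pool, 10 of the 20 Mup bins lay below and 3 above the range of the flank bins, 2.62 to 3.22 reads per listed position. In the WT pool 8 Mup bins lay below and 2 above the range of the flank bins, 2.06 to 2.42.

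The listing was thinnest in the middle of the span. Cut into 4 segments of 500 kb from low to high coordinates, the span had 64.6%, 47.2%, 43.6% and 82.8% of windows listed in both pools, and 2231, 1061, 961 and 2772 listed positions in them. Counted in windows listed in both pools, positions per 100 kb ranged from 62 (60700001 to 60800000) to 812 (59900001 to 60000000), with a median of 303. The 60 flank bins ranged from 341 to 1370 with a median of 912. Stretches of 5 kb or more with no position listed in either pool numbered 16 and covered 12.2% of the span, against 2 that covered 0.194% of the flanks. The 3 longest ran from 60756371 to 60810789 (54419 bp), from 60321107 to 60371944 (50838 bp) and from 61004702 to 61055253 (50552 bp), while the longest in the flanks was 6504 bp. No other stretch in the span reached 10 kb. Whether these stretches hold CpG sites was not tested, since no sequence of mm9 was used here.

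**Figure D1:**
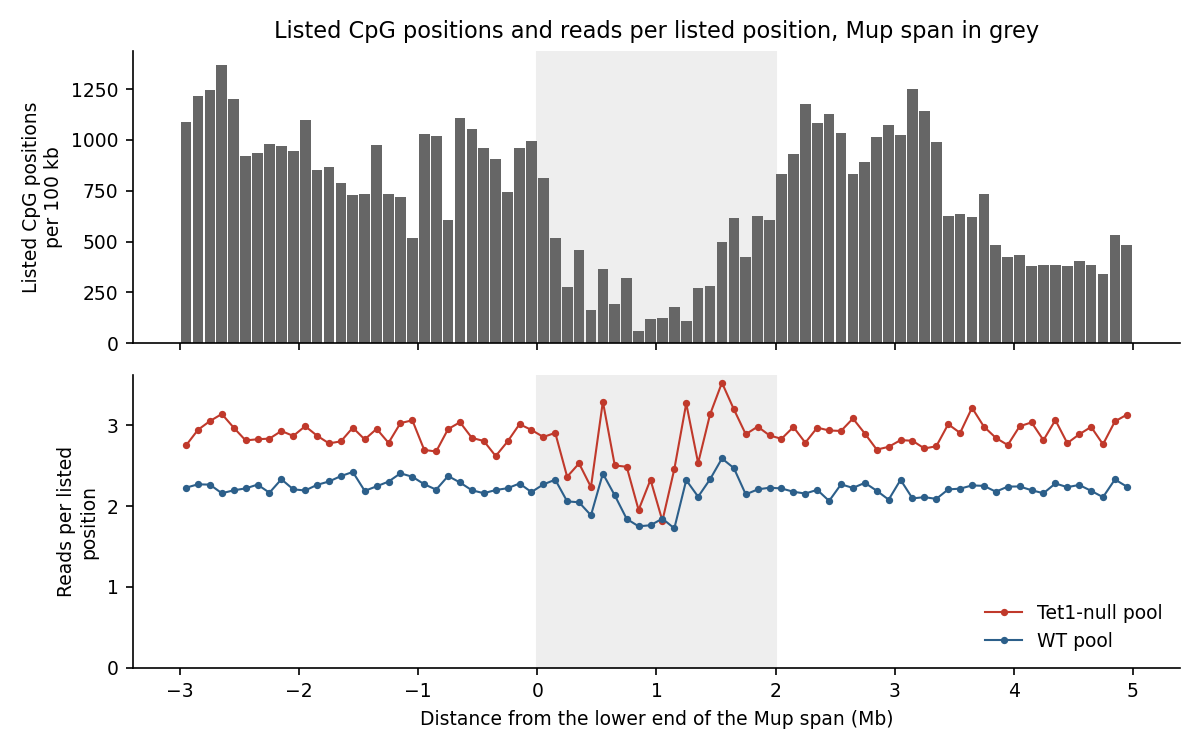
CpG positions listed in either pool per 100 kb, in 1 kb windows listed in both pools (top), and reads per listed position in each pool (bottom), by distance in Mb from the lower end of the Mup span, which is shaded. Listed positions drop to 62 per 100 kb inside the span, while reads per position in its bins range from 1.82 to 3.53 in the Tet1-null pool and from 1.72 to 2.59 in the WT pool.

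Methylation was several times higher in the Mup cluster than beside it, in both pools. Of the reads over the members, 2498 of 17285 (14.5%, Wilson 95% interval 13.9 to 15.0%) were methylated in the Tet1-null pool and 1552 of 11088 (13.997%, 13.4 to 14.7%) in the WT pool. In the flanks the levels were 3.81% (3.71 to 3.92%) in the Tet1-null pool and 2.85% (2.74 to 2.97%) in the WT pool. The cluster stood 10.6 percentage points above its flanks in the Tet1-null pool (Newcombe 95% interval 10.1 to 11.2), a 3.79-fold higher level. In the WT pool it stood 11.1 points above (10.5 to 11.8), a 4.91-fold higher level. These intervals cover counting error only, and since a read spans several positions and reads of amplified libraries are not independent molecules, they are too narrow. Over the autosomes and the X, 4.16% of 46650580 reads at CpG positions were methylated in the Tet1-null pool and 3.50% of 30352175 in the WT pool. On mitochondrial DNA, taken as the background of incomplete conversion, the levels were 1.29% in the Tet1-null pool and 1.66% in the WT pool.

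The excess was as large against windows of chromosome 4 with the same number of listed CpG positions. Weighted to the reads of the Mup windows, such windows outside the span were at 4.05% in the Tet1-null pool and 3.42% in the WT pool. The Mup level exceeded these by 10.4 points in the Tet1-null pool (9.88 to 10.9) and by 10.6 points in the WT pool (9.93 to 11.2). In equal blocks of 2 Mb, a comparison chosen after the values were seen, the span had the highest level of 77 blocks of chromosome 4 in both pools. The next highest stood at 8.70% in the Tet1-null pool (1900001 to 3900000), and a different block was next in the WT pool, at 9.39% (111900001 to 113900000). Among 1215 autosomal blocks with at least 500 windows listed in both pools, it ranked 1 in the Tet1-null pool and 3 in the WT pool. A block of chromosome 12 from 17900001 to 19900000 reached 14.1% in the Tet1-null pool and 15.7% in the WT pool.

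The level was low over the outermost stretches of the span. It first rose steeply about 80 kb inside the lower end and was uneven from window to window beyond that. In steps of 20 kb, the 3 steps from 59900001 to 59960000 stood at 2.47%, 3.65% and 6.65% in the Tet1-null pool, against 1.67%, 1.27% and 1.33% in the WT pool. The step from 59980001 to 60000000 reached 19.3% in the Tet1-null pool and 26.8% in the WT pool, so the level changed within the first 100 kb. In this step, the window from 59984001 held 30 methylated reads of 57 in the Tet1-null pool and 45 of 82 in the WT pool. That from 59994001 held 2 of 24 in the Tet1-null pool and 2 of 31 in the WT pool. Further in, the window from 60019001 held 0 of 43 in the Tet1-null pool and 1 of 26 in the WT pool. That from 60046001 held 26 of 54 in the Tet1-null pool and 13 of 27 in the WT pool. These windows are examples outside the rules for naming windows given below. In the order given they held 33, 10, 6 and 23 listed positions, and the part of CpG number in their contrast was not tested. At the other end the step from 61800001 to 61820000 was at 14.4% in the Tet1-null pool and 16.6% in the WT pool. The 4 steps from there to 61900000 lay between 1.64% and 5.68% in the Tet1-null pool and between 0.649% and 4.65% in the WT pool. Just outside, the last 20 kb below the span were at 2.44% in the Tet1-null pool and 0.949% in the WT pool, and the first 20 kb above it at 9.07% in the Tet1-null pool and 6.81% in the WT pool. The level was thus higher just above the span than in its last 80 kb.

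In bins of 100 kb, 15 of the 20 Mup bins lay above the highest of 60 flank bins in the Tet1-null pool, which was at 9.01%, and 15 of 20 above the highest flank bin of the WT pool, at 7.99%. Mup bins ranged from 4.47% to 26.8% in the Tet1-null pool, with a median of 14.8%, and from 1.53% to 23.5% in the WT pool, with a median of 15.2%. The flank medians were 3.50% in the Tet1-null pool and 2.52% in the WT pool. The highest bin of the Tet1-null pool ran from 61300001 to 61400000 and stood at 23.5% in the WT pool, while that of the WT pool ran from 60200001 to 60300000 and stood at 22.9% in the Tet1-null pool. The bin from 61100001 to 61200000 was low in both pools, at 4.47% in the Tet1-null pool and 4.62% in the WT pool. The middle bins hold few reads, with 82 in the Tet1-null pool and 84 in the WT pool in the sparsest, from 60700001 to 60800000.

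**Figure D2:**
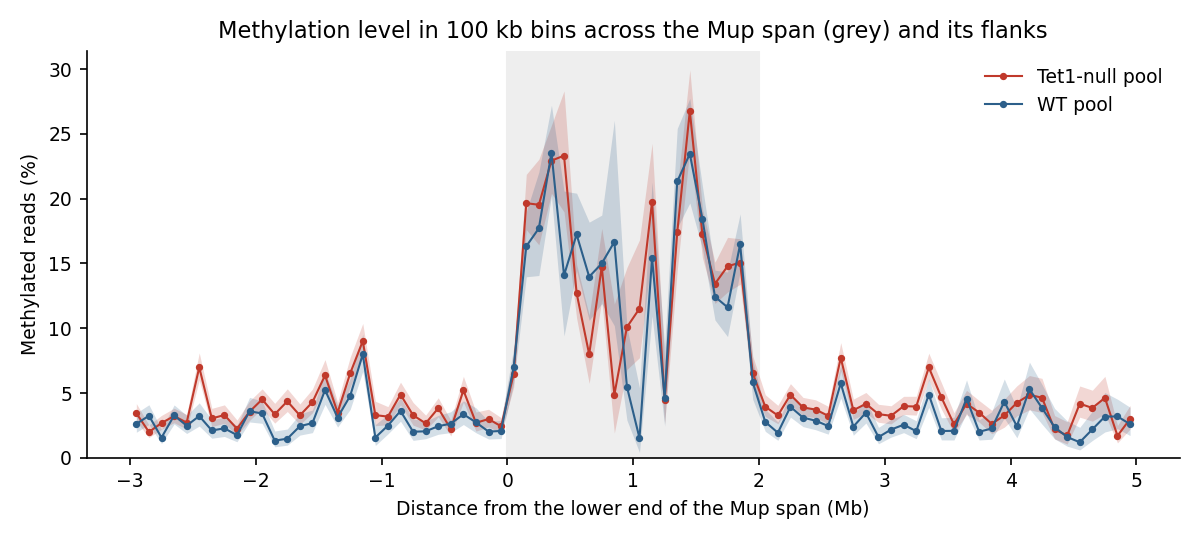
Percent of reads methylated per 100 kb bin in each pool, by distance in Mb from the lower end of the Mup span (shaded), with Wilson 95% intervals as bands. The outermost bins of the span stay below 7.1% and most bins between them lie above every flank bin, whose highest values are 9.01% in the Tet1-null pool and 7.99% in the WT pool.

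Within the cluster the level climbed with the number of listed CpG positions, and it did so more steeply than elsewhere on chromosome 4. Mup windows with 1 to 4 positions were at 5.32% in the Tet1-null pool and 4.53% in the WT pool. Those with 5 to 9 positions were at 8.004% in the Tet1-null pool and 9.16% in the WT pool, and those with 10 to 19 at 17.9% and 17.2%. The 44 windows with 20 or more positions were at 36.6% in the Tet1-null pool (34.8 to 38.5%) and 37.8% in the WT pool (35.4 to 40.2%). The 6785 windows of that class elsewhere on chromosome 4 were at 5.87% in the Tet1-null pool and 5.10% in the WT pool, so the Mup level was 6.24-fold higher in the Tet1-null pool and 7.41-fold higher in the WT pool. For windows with 1 to 4 positions the same ratios were 1.74 in the Tet1-null pool and 1.60 in the WT pool. The 44 dense windows made up 3.69% of the members and held 39.8% of the methylated reads of the Tet1-null pool and 37.0% of those of the WT pool. Windows with 1 to 4 positions made up 54.7% of the members, against 31.2% of windows elsewhere on chromosome 4. The number listed counts positions with a read and not all CpG sites, so a thinly listed Mup window may hold more sites than its class says.

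**Figure D3:**
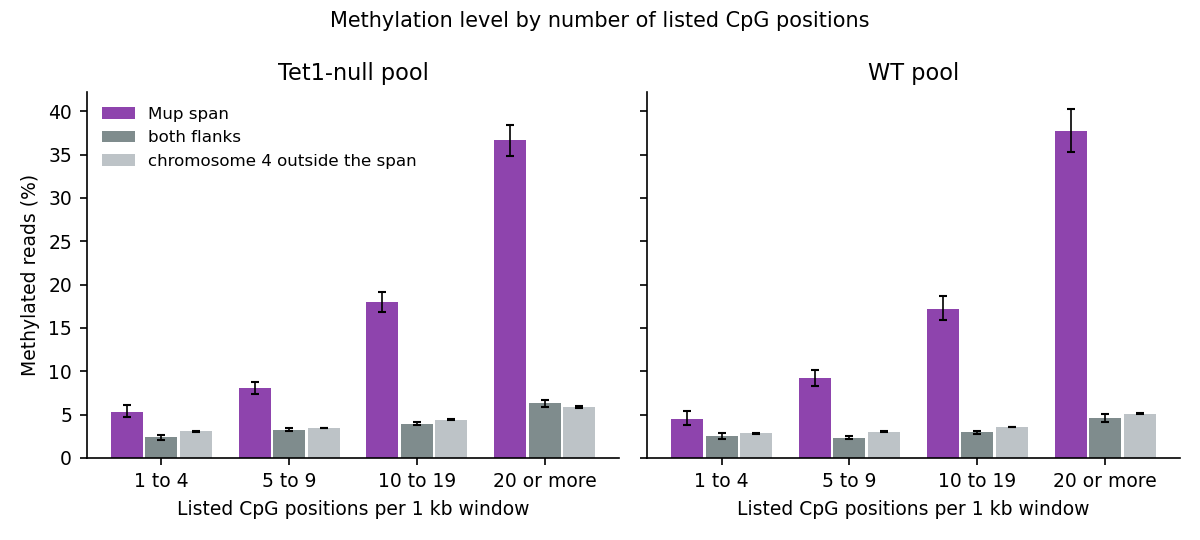
Percent of reads methylated in 1 kb windows grouped by the number of CpG positions listed in either pool, for the Mup span, its flanks of 3 Mb on each side and chromosome 4 outside the span, in the Tet1-null pool (left) and the WT pool (right). Bars are levels and error bars Wilson 95% intervals. The Mup bars climb from 5.32% to 36.6% in the Tet1-null pool and from 4.53% to 37.8% in the WT pool, while no other bar exceeds 6.28%.

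Methylation was uneven among the members, as it was among windows elsewhere. No methylated read was found in 741 of 1191 windows (62.2%) in the Tet1-null pool and in 820 (68.8%) in the WT pool, at a median of 9 and 6 reads per window. The 120 windows with the most methylated reads held 74.3% of those reads and 30.2% of all reads in the Tet1-null pool, and in the WT pool the 120 such windows held 76.1% and 27.3%. The tenth of flank windows with the most methylated reads likewise held 62.8% of them in the Tet1-null pool and 68.0% in the WT pool. These flank windows held a smaller share of all reads than the Mup ones, 17.5% in the Tet1-null pool and 15.3% in the WT pool. No methylated read was found in 66.3% and 76.8% of flank windows. At single positions with 5 or more reads, 680 of 1014 (67.1%) were at 0 in the Tet1-null pool and 278 of 409 (68.0%) in the WT pool. In the flanks 86.7% of such positions were at 0 in the Tet1-null pool and 90.8% in the WT pool. Positions over 80% made up 3.06% (31 positions, Wilson 95% interval 2.16 to 4.31%) in the Tet1-null pool and 2.93% (12 positions, 1.69 to 5.06%) in the WT pool, against 0.253% and 0.0757% in the flanks. Partly methylated positions, above 0 and under 50%, made up 24.2% in the Tet1-null pool and 22.2% in the WT pool, against 12.2% and 8.78% in the flanks. Positions from 50% to 80% made up 5.72% in the Tet1-null pool and 6.85% in the WT pool, against 0.919% and 0.341% in the flanks.

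The level of a window in a pool sums all positions listed in that pool, whether or not the other pool lists them. Levels of single windows were compared where at least 5 positions were covered in both pools and each pool had at least 20 reads. This left 112 of the 1191 members, with a median of 38.5 reads in the Tet1-null pool and 28 in the WT pool. Their median level was 10.2% in the Tet1-null pool and 9.76% in the WT pool, against 1.92% and 0% over all 372073 windows so covered. A level of 20% or more in both pools was found in 37 of the 112 (33.0%), against 2.18% of all such windows. Windows at 50% or more numbered 10 (8.93%) in the Tet1-null pool and 14 (12.5%) in the WT pool, against 0.588% and 0.609% of all such windows. Of these Mup windows 6 were in both lists, which is 60.0% of the Tet1-null list and 42.9% of the WT list. Over all windows the overlap was 40.04% of the Tet1-null list and 38.7% of the WT list, so the Mup share of the WT list lay near that background. Across the 112 windows the level in one pool followed that in the other with Pearson's r at 0.79 and Spearman's rho at 0.76, as a description over windows that share libraries and differ in CpG number.

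The 5 windows with the highest level over both pools together held 23 to 39 listed positions. The windows from 61428001 and from 61429001 adjoin each other. The first held 37 methylated reads of 44 in the Tet1-null pool and 32 of 49 in the WT pool. The second held 44 of 59 in the Tet1-null pool and 16 of 21 in the WT pool. Both were thus methylated in most reads of both pools. The window from 60205001 held 40 of 59 in the Tet1-null pool and 16 of 25 in the WT pool. The window from 60565001 held 11 of 23 in the Tet1-null pool and 34 of 50 in the WT pool. The best covered of the 5, from 61346001, held 116 of 211 in the Tet1-null pool and 52 of 82 in the WT pool, at intermediate levels of 55.0% and 63.4%. Over both pools together 13 of the 112 windows reached 50%.

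The deepest member, the window from 60469001, was not highly methylated. Its 6 positions carried 276 reads in the Tet1-null pool and 112 in the WT pool, 64.7 reads per position over both, and the deepest position had 69 and 28 reads. Its level was 5.43% in the Tet1-null pool and 8.93% in the WT pool. The next deepest was the window from 61346001. The third, from 61869001, had 59 listed positions and was nearly free of methylation, with 4 methylated reads of 128 in the Tet1-null pool and 1 of 70 in the WT pool. The windows from 61483001 (27.5% in the Tet1-null pool and 32.1% in the WT pool) and from 60276001 (20% and 18.2%) complete the 5 deepest. No window of the span exceeded 20 times the median depth of chromosome 4 windows, which was 26 reads over both pools.

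The pools did not differ detectably over the cluster as a whole. The level was 14.5% in the Tet1-null pool and 13.997% in the WT pool, a difference of 0.45 points with a counting interval of -0.38 to 1.28 that includes 0. In the flanks the Tet1-null pool was higher by 0.961 points (0.807 to 1.11), a ratio of 1.34 (1.27 to 1.40), and the ratio in the span was 1.03 (0.974 to 1.09). In points, the difference of the span minus that of the flanks was -0.51 with an interval of -1.35 to 0.34 that includes 0. That value was -1.83 over positions listed in both pools, -0.87 over positions with 2 or more reads in both and 0.43 as a mean of position levels, so it depended on how positions entered. The difference between the ratios was not tested. The sign of the difference in the span also depended on the positions kept, the reads kept and the weights. It was -0.93 points over positions listed in both pools, 0.0888 over positions with 2 or more reads in both, -0.26 with reads thinned to equal depth and 1.38 as a mean of position levels.

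Differences between the pools pointed in opposite directions in parts of the cluster, most with intervals that include 0. The intervals cover counting error only, are too narrow as stated above and are not adjusted for the number of parts. In the 4 segments from low to high coordinates, the Tet1-null minus WT difference was 1.70 points (0.155 to 3.22), -2.85 points (-5.05 to -0.70), 2.04 points (-0.57 to 4.59) and 0.179 points (-1.06 to 1.39). The second segment was at 11.9% in the Tet1-null pool and 14.8% in the WT pool. By 100 kb bin, the Tet1-null pool was higher in 10 and lower in 10 of 20, with a counting interval above 0 in 2 bins, below 0 in 3 and including 0 in 15. The largest differences fell in thinly covered bins, 9.99 points from 60900001 to 61000000 and -11.8 points from 60700001 to 60800000. By CpG number, from the class of 1 to 4 positions to that of 20 or more, the Mup differences were 0.791 points (-0.255 to 1.80), -1.16 points (-2.32 to -0.026), 0.717 points (-1.07 to 2.47) and -1.12 points (-4.16 to 1.90). In the class of 5 to 9 positions, where the Mup interval lies below 0, the flanks differed by 0.919 points the other way (0.680 to 1.15). In the flanks the other classes differed by -0.12, 0.966 and 1.66 points in the same order.

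A test of each window called 1 of the 112. Fisher's exact test, two-sided and adjusted by Benjamini-Hochberg over all 372073 windows, compares the reads of the pools and not the genotypes. A call needed an adjusted p below 0.05 with a shift of at least 20 points. Over all windows 0.161% were called, 0.097% as higher and 0.0637% as lower in the Tet1-null pool, and of the 112 Mup windows 0 were called higher and 1 lower (0.893% in all), too few to read a share from. The called window ran from 61812001 to 61813000 and had 12 listed positions. It held 1 methylated read of 43 (2.33%) in the Tet1-null pool and 16 of 38 (42.1%) in the WT pool, a difference of -39.8 points (adjusted p = 0.0132, Fisher's exact test). It was no longer called by a quasi-binomial F test over its positions (adjusted p = 0.230) or on reads thinned to equal depth (adjusted p = 0.575). With minimums of 8 positions and 40 reads this window was not tested, and the windows from 60051001 (37.5% in the Tet1-null pool and 72.3% in the WT pool) and from 61232001 (38.8% and 74.5%) were called lower instead. These were 2 of 19 Mup windows tested at that setting, against 0.798% of all windows. Of their listed positions, 20 of 33 (60051001) and 16 of 38 (61232001) were listed in both pools. At an unadjusted p under 0.05 by Fisher's exact test, the Tet1-null pool was higher in 7 of the 112 windows and lower in 9. Over all 372073 windows it was higher in 9570 and lower in 7098 at that threshold. Whatever the p, 49 of the 112 were higher, 52 lower and 11 equal. The same counts over all windows were 151636 higher, 115888 lower and 104549 equal.

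The other windows with large differences did not pass the adjusted threshold. The window from 61582001 held 2 methylated reads of 25 in the Tet1-null pool and 17 of 29 in the WT pool (Fisher's exact test, adjusted p = 0.0648). The window from 60631001 held 29 of 68 in the Tet1-null pool and 19 of 21 in the WT pool, in which its deepest position had 1 read. The window from 60054001 held 28 of 64 in the Tet1-null pool and 17 of 20 in the WT pool. All 3 were lower in the Tet1-null pool. In the other direction, the adjoining window from 60053001 held 24 of 51 in the Tet1-null pool and 3 of 24 in the WT pool. Neighbouring windows thus showed large differences of opposite sign, but the pools were read largely at different positions there. Only 6 of the 16 listed positions of the window from 60053001 were listed in both pools, and 11 of the 30 from 60054001. The window from 61582001 likewise had only 5 of its 16 listed positions in both pools, and that from 60631001 had 21 of 38. The window from 61788001 held 34 of 60 in the Tet1-null pool and 11 of 42 in the WT pool, and that from 60122001 held 57 of 88 and 17 of 47. Listed in both pools were 15 of 19 positions (61788001) and 19 of 35 (60122001).

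**Figure D4:**
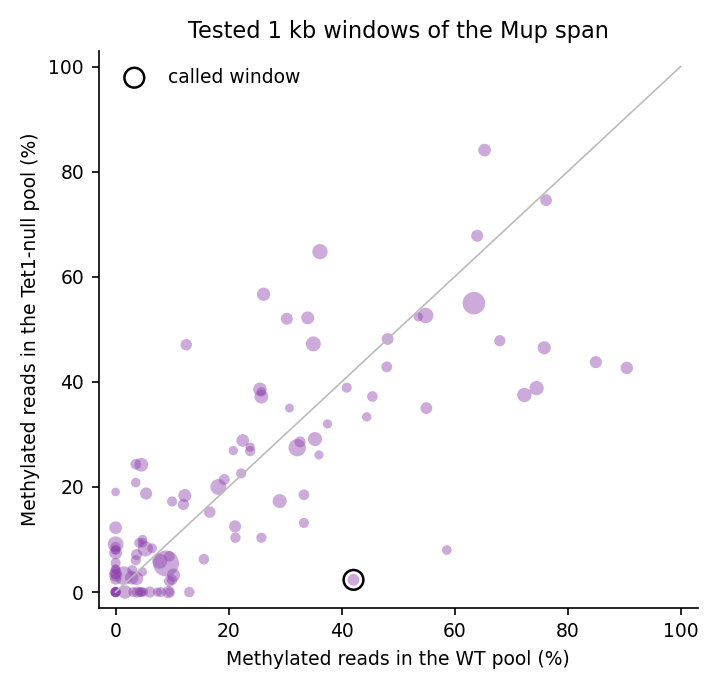
Percent of reads methylated in the Tet1-null pool (vertical) against the WT pool (horizontal) in the 112 tested 1 kb windows of the Mup span, with point area proportional to the reads of both pools. The line marks equal levels, and the circled point is the called window at 2.33% in the Tet1-null pool and 42.1% in the WT pool. Windows spread on both sides of the line.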

How the data were processed

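Per the labels' protocols, DNA was tagged by Tn5 transposase, bisulfite-converted with a Sigma or Zymo kit, amplified and sequenced on an Illumina HiSeq. The Tet1-null libraries split 2 and 3 between these kits and the WT libraries 2 and 2, so kit, run and genotype cannot be separated in pooled tables. Bisulfite treatment does not separate 5-methylcytosine from 5-hydroxymethylcytosine. The authors deposited 1 table per genotype with, per CpG position, a methylation level as a fraction, per the file headers, and a deposited count taken as reads, since level times count was a whole number of methylated reads throughout, within 0.0005 per read. The build was mm9, per the submitters' processing notes, and positions are printed counted from 1. A deposited script removes any read whose cytosines outside CpG exceed 1.2% of its bases, which can lower levels. The aligner is not given in the sources used here.

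Reads were summed per window in Python 3.11.15 (scipy 1.17.1, pandas 2.3.3, numpy 2.4.6). Figures used matplotlib 3.10.9, and promoters were aligned with Biopython 1.88. Levels are methylated over all reads, with Wilson or Newcombe 95% intervals. The intervals of ratios and of the difference of differences are normal approximations to counting error. The window test was checked on simulated data. The cluster, the comparisons and the windows to name (called, highest, largest differences, deepest) were chosen with earlier results of these data known. Promoters stand in for proteins in the rule that picks sequences, since no protein sequences were used. Alternatives are other position and window minimums, flanks, spans and tests. Libraries per pool could not be analysed singly.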

Additional observations from a re-analysis of the deposited data

Results flagged for a closer look

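Windows of the span listed in 1 pool only enter the counts of listed windows and of positions and reads per kb above. They enter none of the levels, and some reads in them were methylated. In the 197 windows listed in the Tet1-null pool only, 114 of 925 reads were methylated (12.3%, Wilson 95% interval 10.4 to 14.6%). In the 98 windows listed in the WT pool only, 29 of 288 reads were methylated (10.1%, 7.10 to 14.1%). The 109 and 41 such windows of the flanks were at 6.16% in the Tet1-null pool and 2.78% in the WT pool. The Mup windows of this kind held 443 positions in the Tet1-null pool and 183 in the WT pool, so a window rests on few positions.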

How the results depend on the processing

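No paired analysis was possible because each table pools the libraries of a genotype, and leaving out libraries was not run for the same reason. The excess of the Mup level over flanks and over windows of equal CpG number kept its direction in both pools under every alternative run. Over flanks, it became 8.72 points over positions listed in both pools (Tet1-null), 8.26 (Tet1-null) and 9.13 (WT) with 2 or more reads in both, 12.2 as a mean of position levels (Tet1-null) and 12.6 (Tet1-null) and 13.1 (WT) with the span trimmed by 200 kb on each side. Without windows of 20 or more positions, chosen after seeing the data, it was 6.81 (Tet1-null) and 7.56 points (WT). Over windows of equal CpG number, the same settings gave 8.53 points over shared positions (Tet1-null), 8.10 and 8.53 with 2 or more reads (Tet1-null and WT), 11.9 as a mean (Tet1-null) and 12.3 and 12.6 trimmed (Tet1-null and WT). The Tet1-null minus WT difference of the span was -0.93 points over shared positions and 1.38 as a mean of position levels, so it has no settled sign. That difference minus the one of the flanks was -1.83 points over shared positions and 0.43 as a mean. Depth per position over flanks was 1.05 (Tet1-null) and 1.03 (WT) times at shared positions, and over windows of equal CpG number 0.997 times in the Tet1-null pool, both with all autosomes and with CpG number counted in both pools. Listed positions per window in the span were 0.675 times those in the flanks, 0.592 with 1 Mb flanks, 0.614 and 0.754 with the lower and the upper flank alone, and 0.453 over all windows with or without a listed position. The count of called Mup windows was 2 of 19 tested with at least 8 positions and 40 reads, against 0.798% of all windows so tested. Neither is the called window of the report, which has 38 WT reads. The count was 2 of 55 with 500 bp windows (1 within that window and 1 from 60051001), against 0.474%. It was 0 of 171 with 2 kb windows, 0 of 112 by the quasi-binomial test and 0 of 59 on thinned reads. Over all windows, these settings called 0.0944%, 0.0304% and 0.0673%. The Mup counts are too small to read a share from. Leaving out deep windows changed nothing in the span, which has none. The causes of these changes were not tested, and some settings leave fewer windows or reads. With 2.86 and 2.22 reads per listed position, single positions and thin bins cannot show small differences.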
